A study of Mus musculus with 48 samples.

Results

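CD45+CD4-CD8- cells sorted from tumors of Yap-cKO mice were compared with the CD4+ and the CD8+ T cells sorted from tumors of mice of the same genotype. The libraries were taken by their titles and number 12 of the 48 in the series, with 4 for each sorted population. A gene was taken as specific to the CD45+CD4-CD8- cells when it differed in the same direction from both T-cell groups. The study asked how Yap, a transcriptional coactivator restrained by the Hippo kinases, acts in T cells that respond to a tumor, and all 12 libraries come from mice in which T cells were meant to lack it. Yap-cKO mice were of strain C57BL/6J and carried loxP sites on both Yap alleles, an EYFP reporter behind a stop cassette and Cre under the Cd4 promoter. Cre driven in this way acts in the T lineage, so the CD45+CD4-CD8- cells, from mice of the same genotype, were not the cells in which deletion was intended. The mice were 6 to 10 weeks old and carried subcutaneous B16F10 tumors, a pigmented mouse melanoma line. WT mice, used here only beside the main comparison, were littermates without T-cell deletion of Yap. Live cells were sorted straight into TRIzol. The methods describe sorting T cells from each tumor but do not tie libraries to mice, so p-values measure the spread between libraries.

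CD45 (Ptprc) is a phosphatase on the surface of all blood-derived nucleated cells. A gate that keeps CD45+ cells and removes those with CD4 or CD8 leaves monocytes, macrophages, dendritic cells, neutrophils, B cells, natural killer (NK) cells and T cells that carry neither coreceptor. Macrophages and dendritic cells take up dying cells and debris, digest them in lysosomes and show peptides on major histocompatibility complex (MHC) class II to CD4+ T cells. In tumors, monocyte-derived cells are also known as sources of chemokines, interleukin-1, arginase and angiogenic factors. RNA was measured in bulk, so fewer cells of a type and less RNA per cell cannot be told apart.

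Each CD45+CD4-CD8- library held 19421055 to 21915836 counts on genes, against 15604679 to 17724824 in CD4+ tumor-infiltrating lymphocytes (TILs) and 14566898 to 17194722 in CD8+ TILs. Values below are CPM (read counts scaled to a common library size) after trimmed-mean-of-M-values (TMM) scaling, and 3 counts in one of these libraries correspond to 0.137 to 0.206 CPM before that scaling. Log2 CPM of a CD45+CD4-CD8- library correlated with the others of its group at a mean of 0.974 to 0.982. Among CD4+ TILs, replicate 3 stood apart, with a mean correlation of 0.871 against 0.929 to 0.941 for the others. Counts are therefore also given without it for all genes and for some of the gene lists. Of 14634 genes tested, the CD45+CD4-CD8- cells were higher than CD4+ TILs in 2277 (15.6%) and lower in 2063 (14.1%). Against CD8+ TILs they were higher in 2440 (16.7%) and lower in 1932 (13.2%). A gene was called at an adjusted p under 0.05 (edgeR's quasi-likelihood test) and an absolute log2 fold change above 1.

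Promoter sequence is shown for a gene that marks each side of the comparison, because the genes called together are often searched for shared letters near their starts. Lyz2 encodes lysozyme of phagocytes, and Cd3e encodes a signaling chain of the T-cell receptor (TCR). The stretches lie on the minus strand of GRCm38.p6, just upstream of each gene's first exon, at chr10:117282322-117282522 for Lyz2 and at chr9:45009628-45009861 for Cd3e. Sequences are from RefSeq and read 5′ to 3′, and capitals mark the letters AACCACA, the RUNX letters TGTGGTT read on the other strand.
Lyz2: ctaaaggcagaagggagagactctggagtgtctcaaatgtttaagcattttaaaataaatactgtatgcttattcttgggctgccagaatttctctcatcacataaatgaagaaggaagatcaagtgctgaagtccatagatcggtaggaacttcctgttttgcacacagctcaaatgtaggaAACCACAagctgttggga
Cd3e: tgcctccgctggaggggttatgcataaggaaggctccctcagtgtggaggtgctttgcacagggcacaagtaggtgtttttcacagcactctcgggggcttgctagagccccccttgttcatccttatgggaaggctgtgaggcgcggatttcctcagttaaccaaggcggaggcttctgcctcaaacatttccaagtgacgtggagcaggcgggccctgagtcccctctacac
The Lyz2 match begins 67 bases before the RefSeq start, and the printed Cd3e stretch held none of the letters searched on either strand. These were GAGGAAG for PU.1, the ETS factor of myeloid and B cells encoded by Spi1, TGTGGTT for RUNX and CTTTGAT for the TCF/LEF factors of T cells. GAGGAAG was found in 321 of 1865 promoter windows (17.2%) of genes higher than in both T-cell groups, in 154 of 1207 windows (12.8%) of genes lower than in both, in 13.8% of 13660 windows of tested genes and in 13.6% of all 32851 windows. TGTGGTT was found in 4.13%, 4.97%, 3.94% and 5.27% of these windows and CTTTGAT in 2.36%, 2.98%, 2.69% and 3.73%, in the same order, so whether a share lay above or below the background turned with the background for TGTGGTT in both sets and for CTTTGAT in genes called lower. RefSeq windows of 250 bases before to 50 bases after a start were matched by symbol for 1412 of 1918 and 937 of 1483 genes, and a match is a description of letters, not a bound site.

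The sort genes and the targeted gene were read first. Yap1 (chromosome 9, 7931999 to 8004596, GRCm38) was at 1.48, 1.95, 2.04 and 1.90 CPM in the CD45+CD4-CD8- libraries, at 1.71, 2.97, 5.43 and 2.53 CPM in CD4+ TILs and at 2.36, 4.15, 6.12 and 4.53 CPM in CD8+ TILs. All 12 values were low. The CD45+CD4-CD8- libraries overlapped with CD4+ TILs and lay below all 4 CD8+ libraries. The log2 fold change was −0.78 ± 0.422 (SE; adjusted p = 0.18, edgeR) against CD4+ and −1.22 ± 0.423 (adjusted p = 0.0393) against CD8+ TILs. The call against CD8+ TILs was lost without CD8+ replicate 2, 3 or 4, CD4+ replicate 2, or any 1 of the CD45+CD4-CD8- libraries (fold changes down to −1.26). In WT tumors, on a scale set over 36 libraries, Yap1 ranged from 2.87 to 5.84 CPM in CD45+CD4-CD8- cells, from 14.9 to 26.3 CPM in CD4+ and from 13.0 to 26.6 CPM in CD8+ TILs. Every Yap-cKO T-cell library lay below every WT T-cell library on that scale, at 1.65 to 6.13 CPM in CD4+ and 2.27 to 6.43 CPM in CD8+ TILs. The CD45+CD4-CD8- cells were also separated by genotype, at 1.53 to 2.08 CPM in Yap-cKO, and the contrast with T cells was not called different between genotypes (1.19 ± 0.453, adjusted p = 0.178, edgeR). Melanoma markers, counted below, summed on that scale to 5982 to 17781 CPM in WT CD4+ and 4066 to 15179 CPM in WT CD8+ TILs. In Yap-cKO the sums were 182 to 2696 and 46.1 to 2684 CPM. In both Yap-cKO T-cell groups, Yap1 and the melanoma sum were highest in replicate 3 and lowest in replicate 1. The part of tumor-cell RNA in the Yap1 values was not tested, and sex could not be told apart from genotype for most libraries.

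Cd4 was at 35, 11.8, 5.92 and 50.4 CPM in the CD45+CD4-CD8- cells, at 557 to 900 CPM in CD4+ TILs and at 2.74 to 5.69 CPM in CD8+ TILs. Cd8a was at 6.5 to 11.1 CPM in the CD45+CD4-CD8- cells, at 0.467 to 1.01 CPM in CD4+ TILs and at 610 to 951 CPM in CD8+ TILs. Both coreceptor transcripts were thus low but present in the CD45+CD4-CD8- cells and sat between the T-cell groups, with no overlap for either. Ptprc ranged from 545 to 1082 CPM in the CD45+CD4-CD8- cells and from 651 to 1725 CPM in CD8+ TILs, and in CD4+ TILs it was at 1139, 1319, 89.1 and 1004 CPM, where replicate 3 was the low value.

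The markers that name the part followed the labels. Lyz2 (chromosome 10, 117277331 to 117282321) was at 10408, 23197, 14488 and 20951 CPM in the CD45+CD4-CD8- cells, at 51.6, 104, 279 and 71.5 CPM in CD4+ TILs and at 329, 1017, 1096 and 529 CPM in CD8+ TILs. Its log2 fold change was 7.09 ± 0.674 (adjusted p = 2.96e-06, edgeR) against CD4+ and 4.54 ± 0.598 (adjusted p = 5.96e-05) against CD8+ TILs. Csf1r, the receptor through which macrophages are kept alive by CSF1, was at 1884, 1652, 1345 and 1493 CPM, at 5.12 to 15 CPM and at 18.3 to 76.2 CPM in the same order of groups. Cd3e (chromosome 9, 44998740 to 45009627) was at 1.48, 2.89, 3.56 and 2.49 CPM in the CD45+CD4-CD8- cells, at 620 to 1475 CPM in CD4+ and at 624 to 1024 CPM in CD8+ TILs. For each of these genes the CD45+CD4-CD8- libraries did not overlap with either T-cell group. The log2 fold changes of Cd3e were −8.47 ± 0.432 (adjusted p = 4.23e-08, edgeR) and −8.30 ± 0.429 (adjusted p = 5.35e-08). CD8+ TILs held more Lyz2 and Csf1r than CD4+ TILs, with no overlap between the groups.

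**Figure D1:**
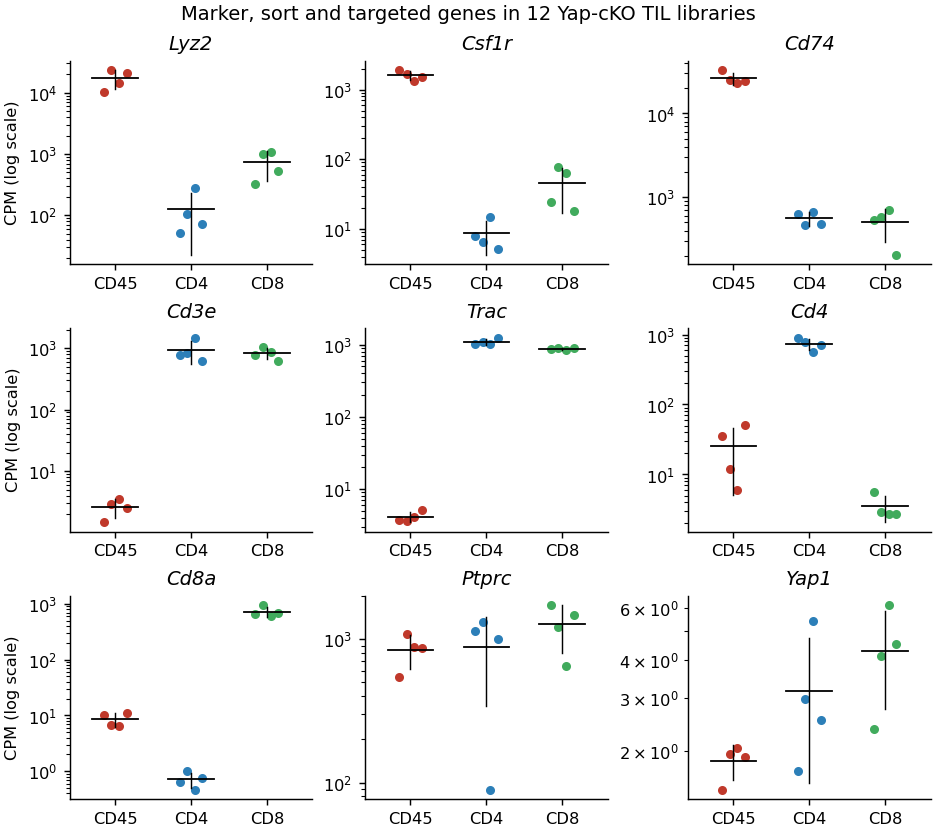
Each panel plots one gene in CPM on a log scale (vertical axis) for the CD45+CD4-CD8- cells, CD4+ TILs and CD8+ TILs of Yap-cKO tumors, with 1 point per library, a horizontal line at the mean and a bar of 1 SD over 4 libraries. Lyz2 lies between 10408 and 23197 CPM in the CD45+CD4-CD8- cells and does not pass 1096 CPM in any T-cell library, while Cd3e stays at or under 3.56 CPM in the CD45+CD4-CD8- cells and is at 620 CPM or more in the T cells.

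The CD45+CD4-CD8- cells were higher than both T-cell groups in 1918 of the 14634 genes (13.1%) and lower than both in 1483 (10.1%). Of the 1918 genes, 1805 were protein-coding and 797 were more than 3 log2 units above each T-cell group, and of the 1483 genes, 1265 were protein-coding and 395 were more than 3 log2 units below. All 4 CD45+CD4-CD8- libraries lay above all 8 T-cell libraries in 2420 genes (16.5%) and below them in 1618 (11.1%), and 1830 and 1156 of the called genes were separated in this way. Without CD4+ replicate 3, 2095 genes were higher and 1744 lower, of which 1866 and 1424 were among those called with it. The balance between the directions rested on the scaling. TMM gave the CD45+CD4-CD8- libraries factors of 0.744 to 0.871 and the T-cell libraries 0.966 to 1.22, and 56.4% of the called genes were higher, with a median log2 fold change over all genes of −0.12 against CD4+ and −0.091 against CD8+ TILs. When libraries were scaled by their totals alone, 1432 genes were higher and 2940 lower (32.8% higher), the medians moved to −0.58 and −0.63, and the 1432 genes were all among the 1918 and the 2940 held all of the 1483.

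**Figure D2:**
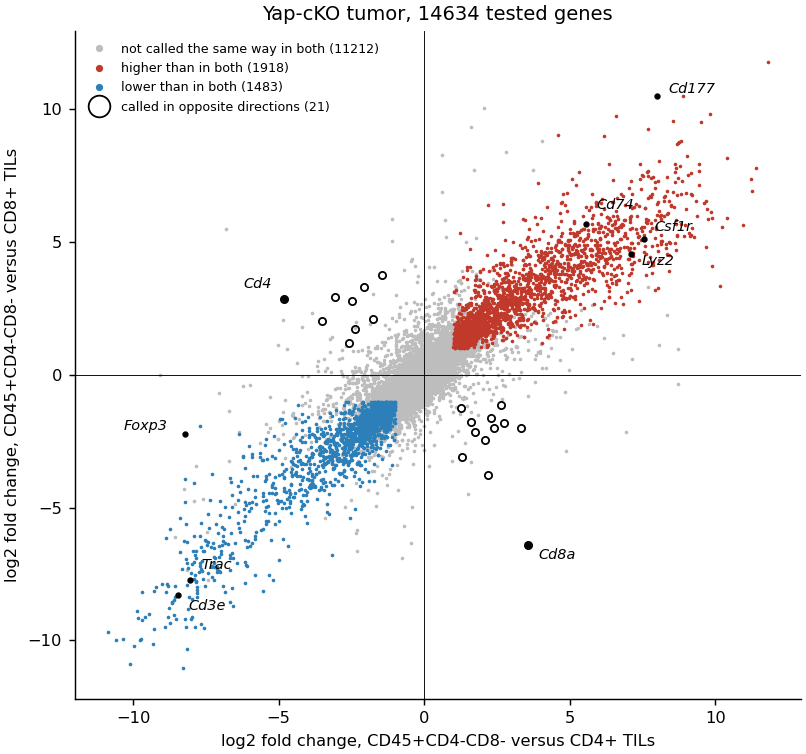
The log2 fold change of each tested gene in CD45+CD4-CD8- cells against CD4+ TILs (horizontal axis) is plotted against the same against CD8+ TILs (vertical axis), with the 1918 genes higher in both in red, the 1483 lower in both in blue, the 21 called in opposite directions as open circles and the rest in gray. The called genes run along the diagonal, with Cd177, Csf1r, Lyz2 and Cd74 at the upper right and Cd3e and Trac at the lower left, while Cd4 and Cd8a lie where the contrasts have opposite signs and Foxp3 lies below both at unequal distance.

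The genes farthest above both T-cell groups were ranked first. By the smaller of the 2 log2 fold changes, the 15 first protein-coding genes with at least 50 CPM were Ace, Gm9733, Cd177, Trem1, Thbs1, Adgre4, Chil3, Hp, Gpr141, C3, Mcemp1, Sirpb1c, Ifi205, Vcan and Treml4. Thbs1 (chromosome 2, 118111876 to 118127133), which encodes the matrix glycoprotein thrombospondin 1, was at 5573, 4314, 3196 and 3982 CPM in the CD45+CD4-CD8- cells against 3.29 to 17.1 CPM in CD4+ and 6.61 to 30.3 CPM in CD8+ TILs. Its log2 fold changes were 8.65 ± 0.66 (adjusted p = 5.06e-07, edgeR) and 7.78 ± 0.63 (adjusted p = 1.28e-06). Ace, the angiotensin-converting enzyme, was at 131, 169, 104 and 69.9 CPM and at or below 0.935 CPM in every T-cell library. Cd177, a surface protein of neutrophils, was at 135, 85.7, 76.8 and 140 CPM and held no more than 3 counts in any CD8+ library, so it was at least 662-fold higher than in CD8+ TILs. Trem1, an activating receptor of neutrophils and monocytes, was at 52.3 to 147 CPM and did not pass 1.31 CPM in a T-cell library. For all 15 genes the lowest CD45+CD4-CD8- library was above the highest T-cell library, as in 16.5% of all genes tested. The 15 were ranked on these same libraries, so their separation adds no support.

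Lineage transcription factors separated in the same way. Of 17 tested factors of the myeloid lineage 15 were higher than in both T-cell groups and none was lower, with median log2 fold changes of 3.60 and 3.70. Cebpb, a leucine-zipper factor of monocytes and activated macrophages, was at 1530 to 2300 CPM against 162 to 382 CPM in CD4+ and 87.1 to 208 CPM in CD8+ TILs. Irf5, which acts downstream of Toll-like receptors, had log2 fold changes of 3.40 ± 0.33 (adjusted p = 3.59e-06, edgeR) and 4.31 ± 0.34 (adjusted p = 1.14e-06). Maf and Bhlhe41 were not called in both contrasts, and Bhlhe41 was at 2050 to 3916 CPM in the CD45+CD4-CD8- cells and 1566 to 7155 CPM in the T cells.

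Marker lists of the cell types that the gate could hold were counted next. Among macrophage and monocyte markers 19 of 24 tested were higher than in both T-cell groups and none lower, with median log2 fold changes of 5.83 against CD4+ and 3.36 against CD8+ TILs. Their summed level was 31944, 42930, 29856 and 40700 CPM in the CD45+CD4-CD8- cells, against 771, 764, 1916 and 745 CPM in CD4+ and 2675 to 4076 CPM in CD8+ TILs. CD4+ replicate 3 was the highest of its group, and without it 22 of the 24 were higher. Apoe, an apolipoprotein of lipid-handling macrophages, was at 2091 to 2802 CPM against at most 635 CPM in the T cells. Cd14, the lipopolysaccharide coreceptor of monocytes, was at 1480 to 2654 CPM against at most 58.1 CPM. The 5 markers not called higher in both contrasts were C1qa, C1qc, Ly6c2, Trem2 and Cd163, and Ly6c2 had a mean of 656 CPM in the CD45+CD4-CD8- cells, 162 CPM in CD4+ and 946 CPM in CD8+ TILs.

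Dendritic cell markers were higher in 13 of 15, with medians of 4.90 and 4.27. Cd209a, a lectin of monocyte-derived and type 2 conventional dendritic cells, was at 321 to 675 CPM against at most 25.6 CPM in the T cells, and Irf8, a factor of type 1 conventional and plasmacytoid dendritic cells, was at 888 to 1160 CPM against at most 333 CPM. The exceptions were Itgae and Ccr7, which T cells also express, and Ccr7 ranged from 577 to 1071 CPM in the CD45+CD4-CD8- cells and from 239 to 1044 CPM in the T cells. Neutrophil markers were higher in 8 of 11, with medians of 7.68 and 5.32, and were uneven between libraries. S100a8, an alarmin stored in neutrophils and monocytes, was at 43.5, 512, 144 and 766 CPM in replicates 1 to 4 of the CD45+CD4-CD8- cells and did not pass 9.9 CPM in the T cells. Replicates 2 and 4 were thus high and replicate 1 low. The summed neutrophil markers were at 886, 2097, 789 and 2971 CPM, high in the same replicates and lowest in replicate 3. Ly6g, which defines mature neutrophils in surface staining, had at most 0.983 CPM in any of the 12 libraries and was not tested.

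All 15 B and plasma cell markers were higher than in both T-cell groups, with medians of 5.49 and 4.45. Cd79a, a signaling chain of the B-cell receptor, was at 82, 184, 295 and 183 CPM against 1.4 to 5.66 CPM in CD4+ and 3.1 to 5.01 CPM in CD8+ TILs. Ighm, the IgM heavy chain, was at 651 to 859 CPM against 264 to 406 CPM and 174 to 227 CPM, a smaller separation, with log2 fold changes of 1.19 ± 0.21 (adjusted p = 0.00054, edgeR) and 1.90 ± 0.21 (adjusted p = 1.66e-05), the former at 0.75 with libraries scaled by totals alone and then not called. Summed B-cell markers were lowest in replicate 1 and highest in replicate 3 of the CD45+CD4-CD8- cells (1537, 2132, 2971 and 2177 CPM). NK and innate lymphoid markers did not move as a block, with 6 of 18 higher, 2 lower and 10 neither, and medians of 2.35 against CD4+ and 0.18 against CD8+ TILs, the latter turning to −0.35 when libraries were scaled by totals alone. The NK genes Ncr1 and Klrb1c, chosen after their values were seen, were among the 6, with 49.2 to 71.2 CPM and 49.7 to 64.8 CPM against at most 3.8 CPM and 20.4 CPM in the T cells, as were the adaptor Tyrobp and the receptor Fcgr3, which macrophages share. Nkg7, a granule protein that effector CD8+ T cells share with NK cells, was lower than in both groups, at 129 to 162 CPM against 304 to 1124 CPM in CD4+ and 1184 to 2235 CPM in CD8+ TILs.

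T cells without CD4 or CD8 would fall in the same gate. The T lineage and TCR signaling genes were lower in 21 of 25 and higher in none, with medians of −4.83 and −4.96, and their summed level was 636 to 704 CPM in the CD45+CD4-CD8- cells against 11038 to 14865 CPM in CD4+ and 11412 to 12826 CPM in CD8+ TILs. Of the remaining 4 genes, 3 were the coreceptor genes Cd4, Cd8a and Cd8b1, and the other was Lcp2, an adaptor that myeloid cells also use. Trdc, the constant segment of the delta chain, was at 5.73 to 7.48 CPM in the CD45+CD4-CD8- cells, at 2.65 to 6.16 CPM in CD4+ and at 4.77 to 21 CPM in CD8+ TILs, and the groups overlapped. Of 8 gamma-delta T-cell markers 4 were lower and 1 was higher. The gamma chain segment Tcrg-C2 held at most 3 counts in every CD45+CD4-CD8- library and was at least 53.8-fold lower than in CD4+ and 202-fold lower than in CD8+ TILs.

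Markers of tumor, stromal, erythroid and platelet cells, which lie outside the gate, were also counted. So were those of mast cells and basophils, which carry CD45 and can fall inside it. Melanoma markers summed to 135, 297, 463 and 545 CPM in the CD45+CD4-CD8- cells, to 189, 913, 2388 and 962 CPM in CD4+ TILs and to 47.9, 563, 2554 and 1254 CPM in CD8+ TILs. None of the 12 markers was called higher or lower than in both, and replicate 1 of each population had the lowest sum. Of 10 endothelial markers 3 were higher (Kdr, Flt1 and Vwf), and 4 without CD4+ replicate 3. Kdr, a receptor for vascular endothelial growth factor, was at 45.2, 20.2, 24.6 and 23.2 CPM against 0.277 to 3.63 CPM in the T cells. Of 11 fibroblast and pericyte markers only Thy1, which T cells express, was called in both contrasts, and it was lower. Without CD4+ replicate 3, 1 of the 11 was called higher and 1 lower. Among mast cell markers Kit was higher (1 of 6), and among 9 erythroid and platelet markers none was called in both contrasts. Pf4, a platelet chemokine, was called higher against CD4+ TILs, at 117 to 298 CPM against 1.71 to 67.7 CPM, but not against CD8+ TILs, at 22.8 to 116 CPM. The part of such cells in the genes called here was not tested.

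**Figure D3:**
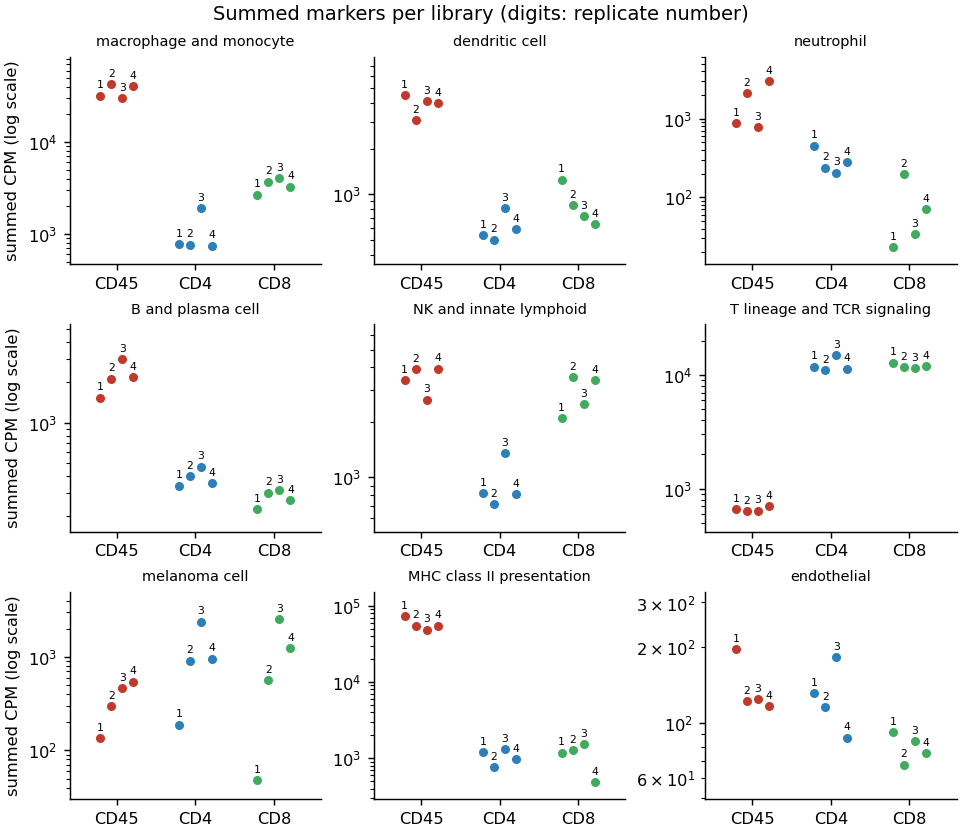
Each panel sums the CPM of one marker list (log scale) for every library of the 3 sorted populations in Yap-cKO tumors, and the digits give the replicate number. Macrophage, dendritic, B-cell and MHC class II sums lie higher in the CD45+CD4-CD8- cells than in any T-cell library, T lineage sums lie lower (636 to 704 CPM), and melanoma sums overlap between the populations.

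Antigen presentation genes differed by class. All 10 MHC class II genes were higher than in both T-cell groups, with medians of 5.70 and 5.69, and their summed level was 74068, 54788, 48536 and 54796 CPM in the CD45+CD4-CD8- cells against 773 to 1331 CPM in CD4+ and 488 to 1548 CPM in CD8+ TILs. H2-Ab1 (chromosome 17, 34257689 to 34269419), the beta chain of the I-A molecule, was at 18368, 12501, 10953 and 13338 CPM, at 98.5 to 239 CPM and at 84.2 to 311 CPM in the same order, with log2 fold changes of 6.27 ± 0.47 (adjusted p = 4.82e-07, edgeR) and 5.94 ± 0.47 (adjusted p = 1.02e-06). Cd74, the invariant chain that guards the peptide groove, was at 22983 to 32716 CPM against at most 705 CPM in the T cells. MHC class I genes did not follow. Of 12 tested only Calr, a chaperone of the loading complex, was higher than in both groups and only Nlrc5, a transactivator of these genes, was lower, with medians of −0.20 and 0.038, the latter at −0.51 with libraries scaled by totals alone. H2-K1 was at 2017 to 2870 CPM against 4151 to 7858 CPM in CD4+ and 3435 to 4433 CPM in CD8+ TILs, and it was called lower against CD4+ TILs but not against CD8+ TILs.

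Receptors that sense antibody, complement and microbial products were higher almost without exception. All 11 Fc receptors and adaptors were higher (medians 6.09 and 4.64), as were all 22 Toll-like and C-type lectin receptor genes (5.75 and 4.26, the former 5.64 with genes under the count floor set to their bound) and 9 of 12 complement genes (6.31 and 3.71; 11 of 12 without CD4+ replicate 3). Fcgr2b, the inhibitory IgG receptor, was at 715 to 1117 CPM against 7.38 to 12.4 CPM in CD4+ and 23.1 to 51.9 CPM in CD8+ TILs. Clec7a, the beta-glucan receptor dectin-1, was at 697 to 826 CPM against at most 7.48 CPM, with log2 fold changes of 7.93 ± 0.50 (adjusted p = 1.18e-07, edgeR) and 7.02 ± 0.48 (adjusted p = 4.48e-07). C3, the central complement component, was at 601, 301, 235 and 298 CPM against at most 3.99 CPM in a T-cell library. C1qb, a chain of the initiating C1q complex, was higher by less against CD8+ TILs (2.39 ± 0.68, adjusted p = 0.0147, edgeR) than against CD4+ TILs (4.96 ± 0.77, adjusted p = 0.000185), and in CD4+ TILs it was at 14, 15.3, 93.5 and 6.58 CPM. The call of C1qb against CD8+ TILs was lost without CD8+ replicate 4 (2.17).

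Digestion and lipid handling genes were higher by smaller medians. Lysosome genes were higher in 21 of 26 with medians of 2.65 and 2.19, and lipid genes in 14 of 19 with medians of 2.56 and 2.32, against −0.12 and −0.091 over all genes tested. Psap, the precursor of the saposins that help degrade sphingolipids, was at 5992 to 9228 CPM against 203 to 718 CPM in CD4+ and 372 to 655 CPM in CD8+ TILs. Ctss, the cysteine protease that trims the invariant chain, was at 1938 to 2779 CPM against at most 288 CPM. Plin2, which coats lipid droplets, was at 901 to 1368 CPM against at most 213 CPM, with log2 fold changes of 2.91 ± 0.28 (adjusted p = 2.96e-06, edgeR) and 3.26 ± 0.28 (adjusted p = 2.02e-06).

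Secreted mediators split by family. Interleukin-1 and inflammasome genes were higher in 9 of 14, with medians of 2.18 and 2.04. Il1b (chromosome 2, 129364570 to 129371139) was at 3152, 5285, 3440 and 5364 CPM against 9.56 to 31.3 CPM in CD4+ and 16.9 to 69.2 CPM in CD8+ TILs, and the antagonist Il1rn was at 916 to 1412 CPM against at most 45 CPM. The inflammasome adaptor Pycard was not called, at 154 to 247 CPM in the CD45+CD4-CD8- cells and 76.5 to 286 CPM in the T cells. Chemokine genes were higher in 15 of 25 and lower in none (4.38 and 2.93). Ccl6, Ccl9 and Cxcl2, ligands of CCR1 and CXCR2, were at 2420 to 3987, 1225 to 1707 and 891 to 1759 CPM and did not pass 373, 115 and 84 CPM in the T cells. Ccl5, which cytotoxic T cells release, was at 183 to 239 CPM against 174 to 629 CPM in CD4+ and 905 to 1692 CPM in CD8+ TILs.

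Genes linked to immune regulation by myeloid cells were higher in 13 of 17, with medians of 4.72 and 4.18. Spp1 (osteopontin; chromosome 5, 104435118 to 104441050) was at 694, 2204, 2372 and 3069 CPM against 6.27 to 28.8 CPM in CD4+ and 105 to 315 CPM in CD8+ TILs, and replicate 1 was low. Tgfbi, a matrix protein induced by TGF-beta, was at 1487 to 2589 CPM against at most 52.2 CPM, with log2 fold changes of 8.07 ± 0.60 (adjusted p = 4.36e-07, edgeR) and 6.15 ± 0.55 (adjusted p = 2.7e-06). Sirpa, the receptor of the CD47 signal, was at 838 to 1226 CPM against at most 80.4 CPM. The 4 not called in both contrasts were Il10, Tgfb1, Mmp12 and Cd84, and Il10 had means of 23, 37.4 and 5.38 CPM in the CD45+CD4-CD8- cells, CD4+ and CD8+ TILs.

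Ligands and receptors of costimulation lay on opposite sides of the comparison. B7 and TNF family ligands were higher in 9 of 17 and lower in none, with medians of 1.51 and 1.78 (12 of 17 without CD4+ replicate 3), and costimulatory and inhibitory receptors of T cells were lower in 12 of 16 and higher in none, with medians of −3.98 and −3.41. Cd86, which binds CD28 and CTLA-4, was at 214 to 249 CPM against 3.39 to 23.2 CPM in CD4+ and 27.1 to 55.3 CPM in CD8+ TILs. Cd274, the PD-1 ligand PD-L1, was at 184, 263, 210 and 240 CPM against 162, 73.3, 16.8 and 62.3 CPM in CD4+ and 38.6 to 110 CPM in CD8+ TILs. The groups did not overlap, but the difference was smaller, with log2 fold changes of 1.51 ± 0.53 (adjusted p = 0.0399, edgeR) and 1.92 ± 0.54 (adjusted p = 0.013). The call against CD4+ TILs was lost without CD4+ replicate 2 (1.48) or 4 (1.41), without any 1 of the CD45+CD4-CD8- libraries (1.44 to 1.61), or with libraries scaled by totals alone (1.04). Pdcd1, which encodes PD-1 itself, was at 13.7 to 18.2 CPM against 610 to 801 CPM and 373 to 1083 CPM. The 4 receptor genes not called lower in both contrasts were Btla, Lag3, Havcr2 and Cd160.

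Cytokine and chemokine receptors divided between the populations. Of 31 cytokine receptor genes 12 were higher and 7 lower, and of 20 chemokine receptor genes 9 were higher and 5 lower. Ccr2, which brings monocytes out of the bone marrow, was at 686 to 1562 CPM against 39.1 to 296 CPM in CD4+ and 67.1 to 176 CPM in CD8+ TILs. Il2rb and Il2rg, chains of the receptors for interleukin-2 and interleukin-15, were lower, Il2rb at 233 to 507 CPM against 610 to 2050 CPM in the T cells and Il2rg at 434 to 515 CPM against 812 to 1525 CPM. Cxcr6 was at 5.79 to 12.9 CPM against 109 to 1014 CPM, and Ccr8, a receptor of tumor regulatory T cells, at 1.66 to 2.23 CPM against 243 to 431 CPM in CD4+ and 5.41 to 75.8 CPM in CD8+ TILs.

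By the same rule, the 15 genes farthest below both T-cell groups were Cd3e, Themis, Bcl11b, Cd3g, Cd3d, Cd6, Lat, Cd5, Cxcr6, Pdcd1, Ubash3a, Camk4, Icos, Ikzf2 and Tox. For each of them every CD45+CD4-CD8- library was below every T-cell library, as in 11.1% of all genes tested. These genes too were ranked on the same libraries, so their separation adds no support. Bcl11b (chromosome 12, 107910403 to 108003602), a zinc-finger factor that fixes T-cell identity, was at 0.924, 0.691, 1.52 and 0.917 CPM against 142 to 327 CPM in CD4+ and 131 to 249 CPM in CD8+ TILs. Lat, the scaffold of TCR signaling, was at 3.39 to 5.5 CPM against 240 to 684 CPM, with log2 fold changes of −6.83 ± 0.34 (adjusted p = 4.23e-08, edgeR) and −6.34 ± 0.33 (adjusted p = 5.35e-08). Themis was at 0.105 to 0.377 CPM against 90.1, 106, 6.43 and 79.4 CPM in CD4+ TILs, where replicate 3 was the low value, and 78.7 to 191 CPM in CD8+ TILs. T-cell transcription factors were lower in 13 of 20 (−2.51 and −2.27). Tcf7, a TCF/LEF factor, was at 36.9 to 65.7 CPM against 293 to 355 CPM and 341 to 674 CPM.

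Effector genes were mixed. Of 14 cytotoxic and effector genes 6 were lower, 2 were higher and 6 were neither, with medians of −0.75 and −2.36. The share higher, 14.3%, was near the 13.1% of all genes tested, and the share lower was 42.9% against 10.1%. The 2 members higher were Tnf, the cytokine, at 183 to 484 CPM against 10.7 to 39.5 CPM in the T cells, and Gzmc, a granzyme, at 21.9 to 61.9 CPM against 1.78 to 9.12 CPM. Cell cycle genes were lower in 17 of 24 and higher in none, with medians of −1.73 and −1.74. Mcm6, a subunit of the replicative helicase, was at 65.6 to 86.3 CPM against 119 to 313 CPM, with log2 fold changes of −1.37 ± 0.26 (adjusted p = 0.00095, edgeR) and −1.75 ± 0.26 (adjusted p = 0.000172). Interferon response genes were higher in 9 of 20 (5 of 20 with libraries scaled by totals alone), among them Irf7, a regulator of type I interferon genes, at 783, 395, 217 and 220 CPM against 75.6 to 178 CPM in the T cells, and glycolysis genes in 5 of 17 (8 of 17 without CD4+ replicate 3). Of 16 Hippo pathway genes Sav1 was higher and Vgll4, a competitor of Yap for the TEAD factors, was lower, at 47.7 to 54.9 CPM against 126 to 234 CPM. Each is 6.25% of the list, below the 13.1% higher and 10.1% lower over all genes tested. The Hippo medians were −0.054 and 0.27 (−0.53 and −0.27 with totals alone).

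Of the called genes, 21 moved in opposite directions against the T-cell groups. The CD45+CD4-CD8- cells were above CD4+ and below CD8+ TILs in 12, among them Cd8a and the NK receptor genes Klrd1, Klrc1 and Klrc2, and below CD4+ and above CD8+ TILs in 9, among them Cd4, Il1rl1 and Areg.

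**Figure D4:**
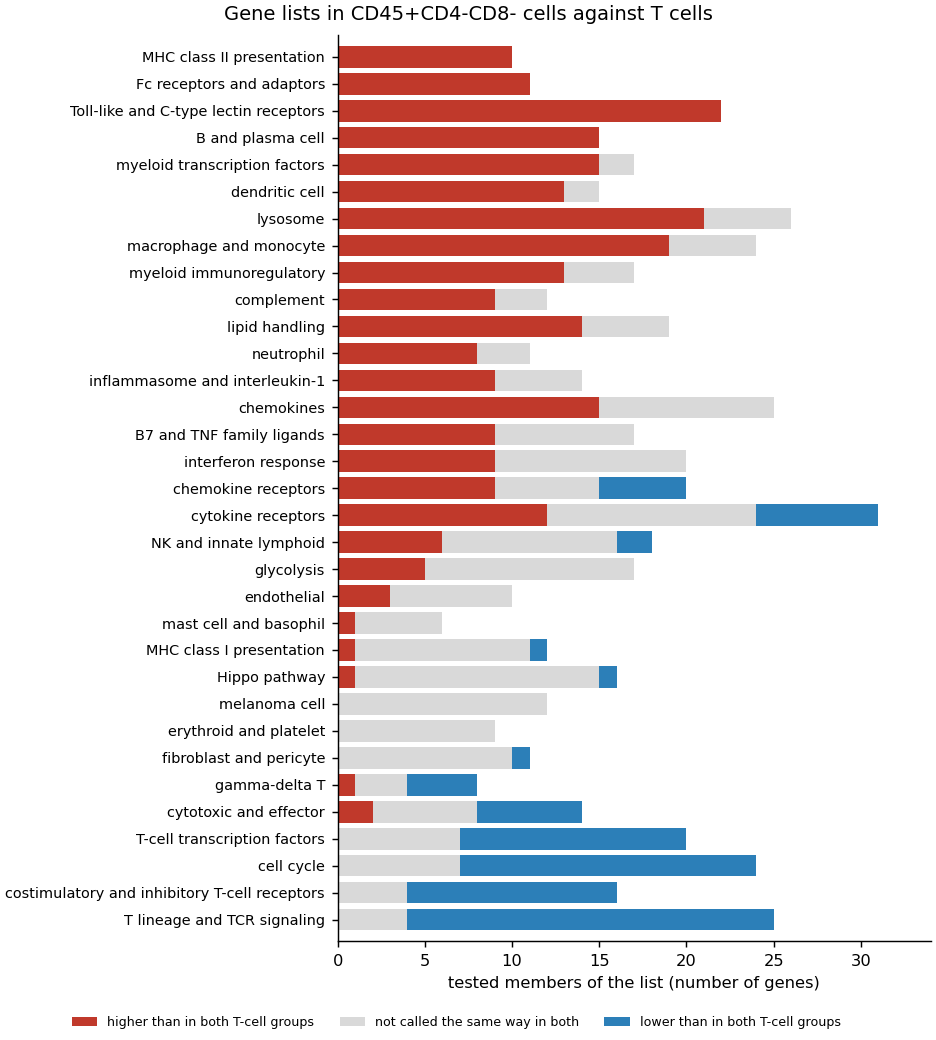
Bars count the tested members of each of 33 gene lists (horizontal axis, number of genes) that were higher than in both T-cell groups, lower than in both, or not called the same way in both. MHC class II, Fc receptor, Toll-like and C-type lectin receptor and B-cell lists were higher in every tested member, and the T lineage list was lower in 21 of 25.

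The same contrast was then set beside that of the tumor-draining lymph nodes (TDLNs) of Yap-cKO mice, with the difference tested as an interaction of the CD45+CD4-CD8- cells against the mean of both T-cell groups. The contrast was more positive in tumor than in TDLN for 1769 of 15808 genes (11.2%) and more negative for 1286 (8.14%). Of the 1918 genes specific to the tumor's CD45+CD4-CD8- cells by being higher, 861 were more positive in tumor and 113 more negative. They were chosen on the same tumor values that enter the interaction, so these counts are no support for a difference. In a separate fit of TDLN libraries 1375 genes were higher than in both T-cell groups, and 684 were shared, which is 35.7% of the tumor genes and 49.7% of the TDLN genes.

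The tumor's CD45+CD4-CD8- cells held more macrophage transcripts and fewer B-cell transcripts than those of the TDLN, on the scale set over 36 libraries. Macrophage and monocyte markers summed to 30430 to 43475 CPM in tumor and to 797 to 1067 CPM in TDLN, and B-cell markers to 1594 to 3028 CPM in tumor and 21672 to 27813 CPM in TDLN. Dendritic cell markers overlapped, at 3103 to 4638 CPM in tumor and 4036 to 6394 CPM in TDLN, as did MHC class II genes, at 49469 to 76807 CPM and 50271 to 80513 CPM. App, the amyloid precursor protein (chromosome 16, 84949685 to 85173766), was at 487 to 580 CPM in tumor CD45+CD4-CD8- cells and 7.78 to 10.3 CPM in those of the TDLN, with T cells at 10.2 to 48.1 CPM in tumor and 21.0 to 32.6 CPM in TDLN. Its interaction was 6.28 ± 0.315 on the log2 scale (adjusted p = 6.64e-12, edgeR). Ctsb, a lysosomal protease, had an interaction of 3.17 ± 0.387 (adjusted p = 1.88e-06) and Psap one of 3.70 ± 0.431 (adjusted p = 9.78e-07). For Lyz2 the interaction was 1.06 ± 0.595 (adjusted p = 0.226), and T-cell libraries held 49.7 to 1151 CPM in tumor against 3.69 to 18.2 CPM in the TDLN. Without Yap-cKO tumor CD4+ replicate 3 it was called, at 1.44. Ighm was more negative in tumor (−2.11 ± 0.306, adjusted p = 1.86e-05), at 660 to 887 CPM in tumor and 4577 to 6743 CPM in TDLN CD45+CD4-CD8- cells.

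Lysosome genes had a more positive contrast in tumor in 16 of 26 and a more negative one in 1, glycolysis genes in 11 of 17 and 0, interferon response genes in 11 of 20 and 0, and myeloid transcription factors in 11 of 17 and 1. Among B-cell markers 6 of 15 were more negative and none was more positive. In the group of genes farthest apart, Slfn1, Acvrl1 and Lrp12 were at most 3.05 CPM in TDLN CD45+CD4-CD8- cells and at least 62.3 CPM in those of the tumor, and Cd38, Ccr6 and Hs3st1 were at least 188 CPM in TDLN and at most 58.1 CPM in tumor. Within the tumor Acvrl1 and Lrp12 were higher than in both T-cell groups. Slfn1 was not called against CD4+ (0.34, adjusted p = 0.392, edgeR) or CD8+ TILs (0.39, adjusted p = 0.312).

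**Figure D5:**
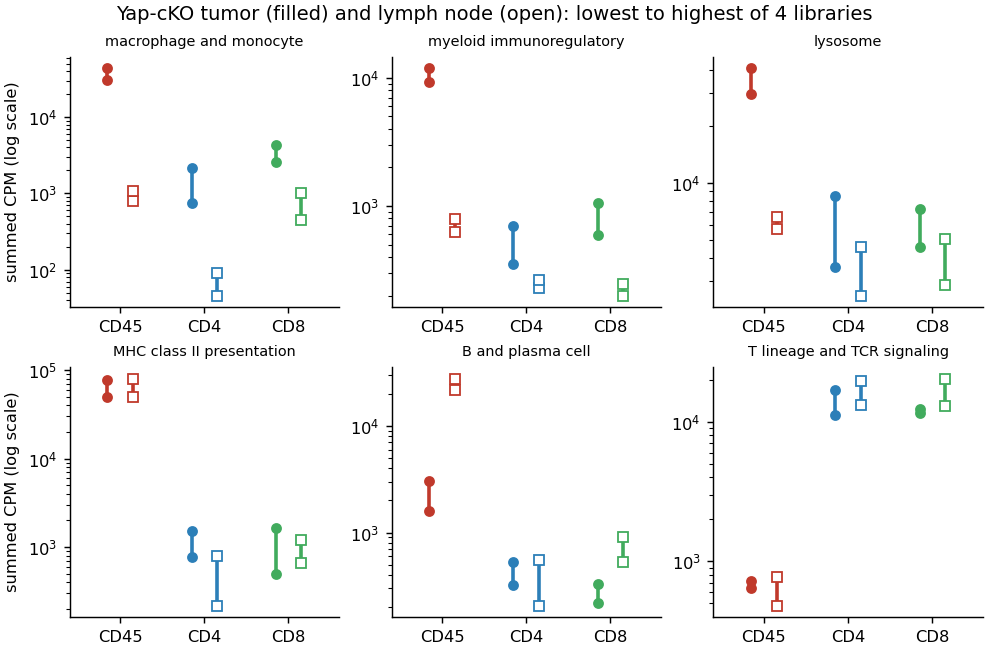
For 6 gene lists, the vertical axis gives summed CPM (log scale) and each bar spans the lowest to the highest of 4 libraries, filled for Yap-cKO tumor and open for Yap-cKO TDLN, in the 3 sorted populations. Macrophage sums of the CD45+CD4-CD8- cells lie at 30430 to 43475 CPM in tumor and at 797 to 1067 CPM in TDLN, B-cell sums lie the other way, and MHC class II sums overlap.

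The contrast was last set beside that of WT tumors. It was more positive in Yap-cKO than in WT tumors for 279 of 15839 genes (1.76%) and more negative for 36 (0.227%), and of the 1918 genes 177 and 9 were among these, a count that shares its libraries with the choice of genes. In a separate fit of the 12 WT libraries, 1393 of the 1918 genes (72.6%) were also higher than in both T-cell groups, which is 70.8% of those higher in WT. The count of more positive genes depended on single libraries, falling to 76 without WT CD45+CD4-CD8- replicate 3 and reaching 806 without Yap-cKO CD4+ replicate 3. For Lyz2 the difference between the contrasts (−0.52 ± 0.617, adjusted p = 0.708, edgeR) did not exceed its error.

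The named genes with a more positive contrast in Yap-cKO tumors were Kdr, Flt1, Col1a1, Ace, Col3a1 and Cd300lg. Kdr was at 20.4 to 46.9 CPM in Yap-cKO and 6.38 to 33.2 CPM in WT CD45+CD4-CD8- cells, which overlapped, and at 0.271 to 3.82 CPM in Yap-cKO and 12.3 to 465 CPM in WT T cells, which did not. Its interaction was 5.95 ± 1.03 on the log2 scale (adjusted p = 0.00821, edgeR). Thbs1, named above, was at 3258 to 5779 CPM in Yap-cKO and 1039 to 3455 CPM in WT CD45+CD4-CD8- cells and at 3.31 to 31.9 CPM and 41.1 to 357 CPM in the T cells, with an interaction of 3.51 ± 0.731 (adjusted p = 0.0162) whose call was lost without WT CD45+CD4-CD8- replicate 1 (3.28) or 2 (3.34). Vegfa, chosen after its values were seen, was at 229 to 405 CPM in Yap-cKO and 89.6 to 184 CPM in WT CD45+CD4-CD8- cells. Its interaction, which also draws on the T-cell libraries of both genotypes, was 3.18 ± 0.427 (adjusted p = 0.00117, edgeR). Markers of other cells were summed beside these values. Endothelial markers were at 149 to 2190 CPM in WT and 66.6 to 88.9 CPM in Yap-cKO CD8+ TILs, and overlapped in CD45+CD4-CD8- cells. Fibroblast and pericyte markers were at 320 to 1096 CPM in WT and 89.9 to 307 CPM in Yap-cKO CD4+ TILs. In CD8+ TILs they were at 247 to 1256 and 93.1 to 201 CPM. Melanoma markers were at 5982 to 17781, 4066 to 15179 and 1201 to 2076 CPM in WT CD4+, CD8+ and CD45+CD4-CD8- libraries. In Yap-cKO they were at 182 to 2696, 46.1 to 2684 and 140 to 563 CPM in the same order. Their part in the difference between genotypes was not tested.

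The B-cell genes Cd79b and Cd22 had a more negative contrast in Yap-cKO tumors, by −2.61 ± 0.439 (adjusted p = 0.0071, edgeR) and −2.01 ± 0.373 (adjusted p = 0.00954). Cd79b was at 54.3 to 187 CPM in Yap-cKO and 207 to 514 CPM in WT CD45+CD4-CD8- cells, with no overlap. Cd22 overlapped, at 44.6 to 121 and 77.4 to 183 CPM in the same order. Both interactions also draw on T cells, where the Yap-cKO means were higher than in WT. Cd22 means were 3.99 against 1.7 CPM in CD4+ and 8.21 against 3.99 CPM in CD8+ TILs. For Cd79b they were 9.93 against 4.23 and 12.7 against 7.56 CPM. Summed B-cell markers were at 1594 to 3028 CPM in Yap-cKO and 3103 to 6294 CPM in WT. Of 15 B-cell markers 3 were more negative and none more positive. A sum of 4 Y-linked genes was at 2.55 to 9.08 CPM in the 12 Yap-cKO tumor libraries, at 41.7 to 149 CPM in WT replicates 1 to 3 and at 2.68 to 4.13 CPM in WT replicate 4, so sex and genotype cannot be told apart for most of this comparison.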

How the data were processed

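RNA of sorted cells was made into cDNA with the SMART-Seq v4 kit and sequenced. Per the submitters' processing notes, reads were handled with FastQC, Trimmomatic and Salmon 0.9.1, with mouse build mm10 (GRCm38). The expected counts per transcript were estimated by Salmon from the reads and deposited by the authors, 1 table per library, beside TPM that were not used here. Of 112092 transcripts, 111787 matched GENCODE M21 by identifier without version, and their counts were summed over 34932 genes and rounded. The 36 libraries used held 12656302 to 23661038 counts, and 0 columns belonged to other samples.

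Genes reaching 10 counts in 4 or more libraries were fitted with edgeR 4.0.16 in R 4.3.3 (TMM, quasi-likelihood F test, Benjamini-Hochberg adjustment), in 1 fit over the 12 Yap-cKO tumor libraries. Calls were made at an adjusted p below 0.05 with a log2 fold change beyond 1 in either direction. SE is the log2 fold change divided by the root of F. Differences between contrasts were tested as interactions. CPM are TMM-scaled. Alternatives were DESeq2 1.42.0, other scalings, no count filter, transcript length offsets, a replicate block, fits of 8 libraries, a test against the fold threshold (glmTreat) and leaving out each library. Folds against a group at or under 3 counts per library are bounds. The fits were tested on simulated data.

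The members and gene lists were chosen with earlier results of these data known. Named genes were the sort, marker and targeted genes, the 15 protein-coding genes of each direction with the largest smaller fold change and at least 50 CPM, the 4 tested members of each list with the highest mean CPM, members called against their list's direction, and the 6 protein-coding genes of each direction with the largest called interactions among those with a mean of at least 20 CPM over 24 libraries. Other genes are named where a count of 5 or fewer falls outside this rule and were then chosen after their values were seen. Promoter sequences are from RefSeq, GRCm38.p6.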

Additional observations from a re-analysis of the deposited data

Results flagged for a closer look

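In 15 of 123 groups of 4 libraries, 1 library lay far from the others by Dixon's test. Chance gives about 1 in 20 for independent groups of normally distributed values. These groups share genes and libraries, so their count cannot be set against that rate. CD4+ replicate 3 of Yap-cKO tumors accounted for 7 of the 15. It had the highest sum of macrophage and monocyte markers (1916 CPM), NK and innate lymphoid markers (1357 CPM), fibroblast and pericyte markers (272 CPM), complement genes (270 CPM), lysosome genes (7519 CPM), lipid handling genes (1508 CPM) and chemokines (1280 CPM). CD4+ replicate 1 stood apart in mast cell and basophil markers at 9.68 CPM. Among CD45+CD4-CD8- libraries, replicate 1 was high in endothelial markers (196 CPM) and replicate 4 in erythroid and platelet markers (663 CPM). Among CD8+ libraries, replicate 1 stood apart in chemokines (1459 CPM), T-cell transcription factors (4757 CPM), Hippo pathway genes (1324 CPM) and Cd4 (5.69 CPM), and replicate 4 in myeloid transcription factors (7535 CPM).

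The contrast of CD45+CD4-CD8- cells with T cells differed between Yap-cKO and WT tumors by a tested interaction (edgeR) in Kdr (5.95 on the log2 scale), Flt1 (4.84), Col1a1 (4.37), Ace (4.34), Col3a1 (4.27) and Cd300lg (3.93). It was more negative in Cd79b (−2.61), Cpm (−2.37), Cd55 (−2.30), Cd22 (−2.01), Cd101 (−2.01) and Sit1 (−1.99). Between tumor and TDLN it was more positive in tumor in Acvrl1 (8.26), Lrp12 (7.94), Cd177 (7.26), Ramp3 (6.50), Slfn1 (6.30) and App (6.28). Ramp3 and Slfn1 were not called against CD4+ or CD8+ TILs within the tumor. The contrast was more negative in Gzmk (−5.91), Tyrp1 (−5.80, a fitted value with CD4+ TDLN libraries all at 0), Cd38 (−5.61), Ccr6 (−5.52), Hs3st1 (−5.19) and Klrg1 (−5.08).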

How the results depend on the processing

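Scaling by library totals alone gave 2940 genes lower than in both T-cell groups, 3647 lower than CD4+ and 3992 lower than CD8+ TILs, and 1140 more positive and 2680 more negative contrasts in tumor than in TDLN. A test against the fold threshold (glmTreat) gave 759 lower than in both, 1179 lower than CD4+, 1575 higher than CD8+ and 960 lower than CD8+ TILs. Between Yap-cKO and WT tumors, DESeq2 called 685 more positive and 143 more negative, and requiring the call against each T-cell group gave 33 and 2, and for TDLN 1079 and 600. The cause was not tested. Leaving out 1 library gave 1578 to 2095 genes higher and 1189 to 1744 lower than in both groups, 1909 to 2449 and 1705 to 2273 against CD4+, 2059 to 2575 and 1539 to 2169 against CD8+ TILs, 76 to 806 and 6 to 203 between genotypes (lowest without WT CD45+CD4-CD8- replicate 3 and Yap-cKO CD45+CD4-CD8- replicate 2, highest without Yap-cKO CD4+ replicate 3), and 1562 to 1964 and 1025 to 1546 between tissues.

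With the replicate number as a block, 2122 genes were higher and 1530 lower than in both groups, and 803 and 212 contrasts differed between genotypes. The numbers were not shown to pair the CD45+CD4-CD8- libraries: same-numbered CD45+CD4-CD8- and CD4+ libraries correlated at −0.22 to 0.35, CD45+CD4-CD8- and CD8+ at −0.008 to 0.45, and 2 and 3 of 4 CD45+CD4-CD8- libraries correlated best with their own number, while CD4+ and CD8+ libraries correlated at 0.16 to 0.64, 3 of 4 best with their own number. The chosen floor of 3 counts per library corresponded to 0.137 to 0.206 CPM before TMM scaling, and some printed values lie below it.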
